A study of Mus musculus with 8 samples.

Results

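Gpnmb, the gene of glycoprotein nonmetastatic melanoma protein B, was followed over the 8 arrays of a mouse macrophage study. It was chosen by its measured signal and background flags over the groups of these same data, so its own levels and differences are given as a description with no test. It is 1 gene of the 21528 that could be tested, and it is read by 1 probe of the 56605 on the array. J774.1 cells, a macrophage-like line of BALB/c mouse origin, were profiled in 4 groups of 2 arrays, stated in the design to be biological replicates. The groups were control cells, cells given 10 µM isorhamnetin for 6 h, cells given 10 µM tamarixetin for 6 h, and cells given 1 µM Torin1 for 6 h. The handling and duration of the control cultures were not stated in the labels. The flavonols are isomers, each being the plant flavonol quercetin with a single methyl group on a different oxygen, and Torin1 inhibits the mTOR kinase. All results come from a single cell line.

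GPNMB is a glycoprotein that spans the membrane of lysosomes, melanosomes and the cell surface, from which proteases can shed its outer part. It is made by macrophages, osteoclasts, microglia and pigment cells, and in macrophages its transcript is known to accumulate when lysosomes are loaded or stressed. The transcription factors MITF, TFE3 and TFEB, which turn on lysosomal genes, are among its known activators, and active mTOR keeps TFEB and TFE3 in the cytoplasm.

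The start region of Gpnmb is shown beside those of Naglu and Clcn7, lysosomal genes that were among the 10 with the highest correlation with Gpnmb over the 8 arrays. Each sequence runs from 250 bases before the RefSeq gene start to 50 bases after it, in build GRCm38.p6, on the plus strand. The windows are chr6:49036268-49036567, chr11:101069844-101070143 and chr17:25133141-25133440. Capitals mark matches to any of the motifs named in the next paragraph, searched on both strands.
Gpnmb: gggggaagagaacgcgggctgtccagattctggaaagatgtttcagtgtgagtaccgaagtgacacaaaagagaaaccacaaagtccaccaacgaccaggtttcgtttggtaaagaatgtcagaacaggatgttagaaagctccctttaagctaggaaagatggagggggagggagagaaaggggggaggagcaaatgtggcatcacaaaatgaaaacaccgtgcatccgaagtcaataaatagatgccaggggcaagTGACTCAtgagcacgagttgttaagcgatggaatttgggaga
Naglu: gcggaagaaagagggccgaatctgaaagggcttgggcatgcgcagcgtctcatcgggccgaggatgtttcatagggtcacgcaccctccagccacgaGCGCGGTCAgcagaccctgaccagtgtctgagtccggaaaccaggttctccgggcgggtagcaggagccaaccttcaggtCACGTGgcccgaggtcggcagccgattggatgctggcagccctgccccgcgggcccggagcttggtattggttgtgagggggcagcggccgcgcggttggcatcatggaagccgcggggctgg
Clcn7: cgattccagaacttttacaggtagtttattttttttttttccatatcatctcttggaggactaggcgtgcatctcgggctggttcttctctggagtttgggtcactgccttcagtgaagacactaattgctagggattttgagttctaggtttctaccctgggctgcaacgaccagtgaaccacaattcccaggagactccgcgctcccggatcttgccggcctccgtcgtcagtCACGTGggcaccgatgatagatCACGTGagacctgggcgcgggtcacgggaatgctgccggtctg

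The Gpnmb window held no CACGTG, the core of the lysosomal gene motif read by MITF, TFEB and TFE3, and no copy of the extended palindromic form of that motif, known as CLEAR. It also held neither TCATGTG, a variant read by MITF, nor TGACNNNGC, the antioxidant response element. The capitals in Gpnmb are a match to TGANTCA, the AP-1 type motif, at base 259 of the window. That motif was added after the sequence had been read, and it is present in 7.81% of the 32851 promoters in the RefSeq table. The capitals in Naglu are a CACGTG and a reverse-strand match to TGACNNNGC, and those in Clcn7 are 2 CACGTG sites. CACGTG was present in 7.15% of all promoters, TCATGTG in 3.77%, TGACNNNGC in 12.39% and the extended form in 0.33%. Among the 28 of 36 listed lysosomal genes with a promoter in the table, 13 held CACGTG and 7 held TCATGTG. A gene counted when any of its promoters held the motif, and by gene the shares over all genes were 8.09% and 4.31%. Of the 10 genes closest to Gpnmb by distance, 6 had a promoter in the table, and 0 of these 6 genes held CACGTG. Of the 10 closest by correlation, 9 had a promoter, and 3 of these genes held CACGTG, namely Clcn7, Klf6 and Naglu. These matches describe the letters in these windows only.

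Gpnmb was low in control cells and high after Torin1. Control cultures gave a processed scanner signal of 37.8 on one array and 34.5 on its replicate. The isorhamnetin pair read 52.2 and 58.5, the tamarixetin pair 26.5 and 24.6, and the Torin1 pair 2139 and 2261. The Torin1 arrays stood far above the other 6, and no 2 groups overlapped. The spot was flagged as well above background on 6 of the 8 arrays, the exceptions being both tamarixetin arrays, and it was saturated on 0.

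For comparison between arrays each signal was put on a log2 scale relative to the 75th percentile of its own array, the unit of all levels below. Gpnmb then stood at -3.28 and -3.20 in control, -2.70 and -2.72 with isorhamnetin, -3.93 and -3.88 after tamarixetin, then 2.53 and 2.66 after Torin1. The group means were -3.24 ± 0.05 (SD, n = 2) in control, -2.71 ± 0.01 with isorhamnetin, -3.91 ± 0.03 for tamarixetin and 2.59 ± 0.09 for Torin1. Torin1 was highest and isorhamnetin above control, and the order of control and tamarixetin is not set, since the tamarixetin level is a bound. In the plot of Gpnmb by array, the tamarixetin points lie below the lowest signal called well above background on their arrays.

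**Figure D1:**
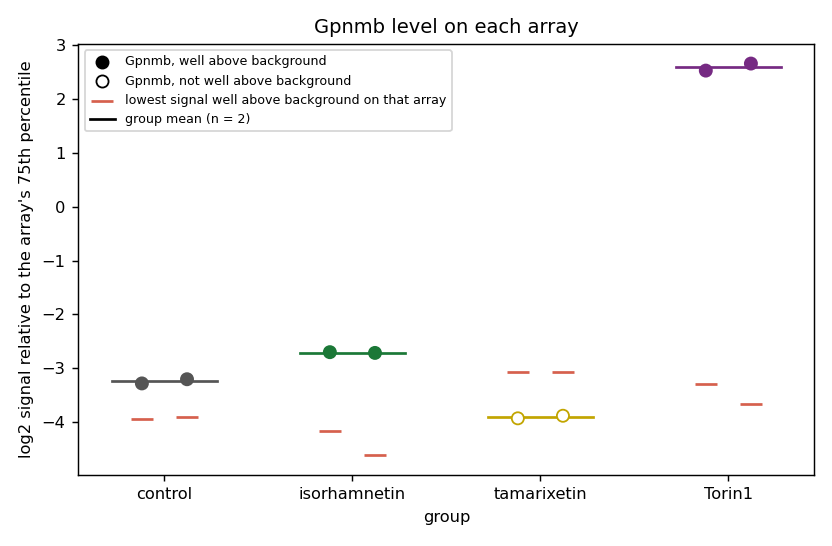
Gpnmb level on each of the 8 arrays by group, as log2 signal relative to the array's 75th percentile; filled points were well above background, open points were not, black lines are group means (n = 2), and red dashes are the lowest signal called well above background on each array. The Torin1 arrays sit at 2.53 and 2.66, all others between -3.93 and -2.70.

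The Torin1 minus control difference was 5.84 ± 0.07 (SE) on the log2 scale, a 57.1-fold higher level. It was the largest rise among the 18101 genes read well above background on all 4 arrays of these groups. Among all 21528 genes tested it came after Il7r, at 5.89, whose probe was not well above background on either control array, so the order of the pair is not set. Against tamarixetin, the level with Torin1 was at least 50.7-fold higher, with the tamarixetin level replaced by the lowest signal read well above background on those arrays. All bounds below were made in that way.

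**Figure D2:**
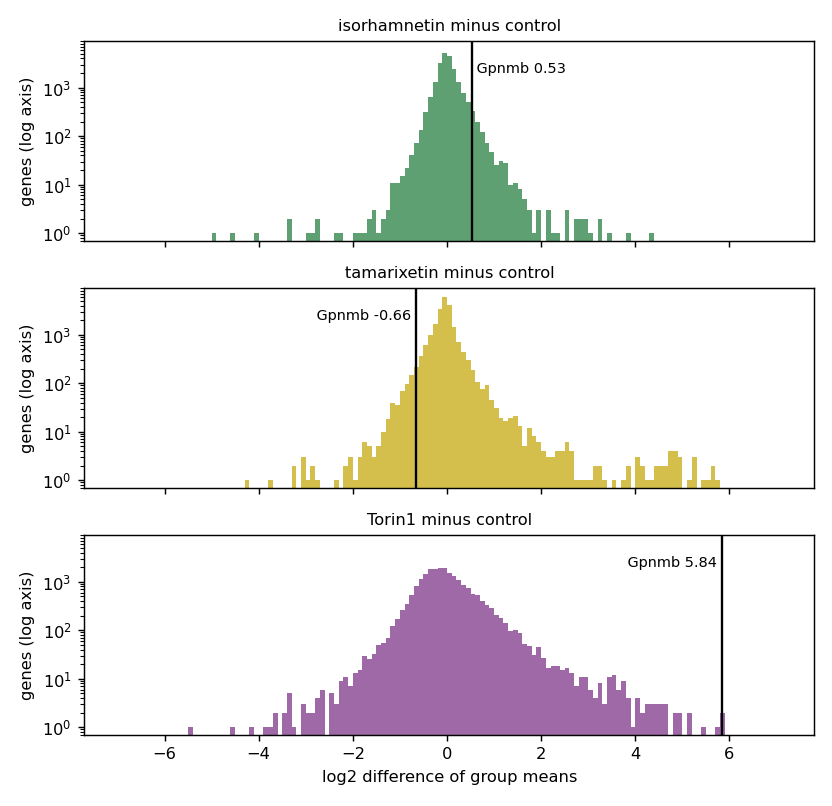
Histograms of the log2 difference from control for the 21528 genes tested, 1 panel for each compound, with a log axis for the number of genes. A black line marks Gpnmb, at 0.53 for isorhamnetin, -0.66 for tamarixetin and 5.84 for Torin1.

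Between the 2 flavonols, given at the same dose for the same time, Gpnmb was higher with isorhamnetin. The difference was 1.20 ± 0.07 on the log2 scale, of which at least 1.29-fold is measured. Isorhamnetin arrays were above the control arrays, by 0.53 ± 0.07 on the log2 scale, or 1.45-fold. Larger rises than this were measured for 1.68% of the 19590 genes read well above background on all arrays of both groups. Tamarixetin arrays were nominally below control, by -0.66 ± 0.07, and no fold is given because the control signal itself lies under the tamarixetin arrays' lowest signal called well above background. That lowest signal was 47.7 and 43.5 with tamarixetin against 23.8 and 21.3 in control.

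The spot is dim without Torin1, so its readings were compared on the linear scale as well. The isorhamnetin mean exceeded the control mean by 19.3 intensity units, with a combined scanner error of 6.50. The tamarixetin mean differed from the control mean by -10.6 units, with a combined scanner error of 8.57. The gap between isorhamnetin and tamarixetin was 29.8 units, with an error of 8.78. These errors are the scanner's own for a spot and hold neither the spread between cultures nor that between spots of a probe, given below.

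The same spot, read as the median pixel minus the local background, gave 59 and 39 in control, 67.5 and 75 with isorhamnetin, and 23.5 and 44 with tamarixetin. Read in this way, control and tamarixetin overlapped and isorhamnetin stood above both. With Torin1 it gave 2118 and 2189. When the background-subtracted signal was set against the median of the array's own negative control spots, it was 42.7 and 40.1 in control, 56.8 and 62.9 with isorhamnetin and 35.6 and 32.9 with tamarixetin. Of 193 negative control spots never marked as outliers, 0 reached the Gpnmb signal on any array. Of all 308, outliers included, 13 and 19 did so on the tamarixetin arrays and between 0 and 2 on the other arrays. Zeroed on the negative controls, the log2 differences from control were 0.45 for isorhamnetin, -0.44 for tamarixetin and 5.64 for Torin1, a setting chosen after the data had been seen.

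**Figure D3:**
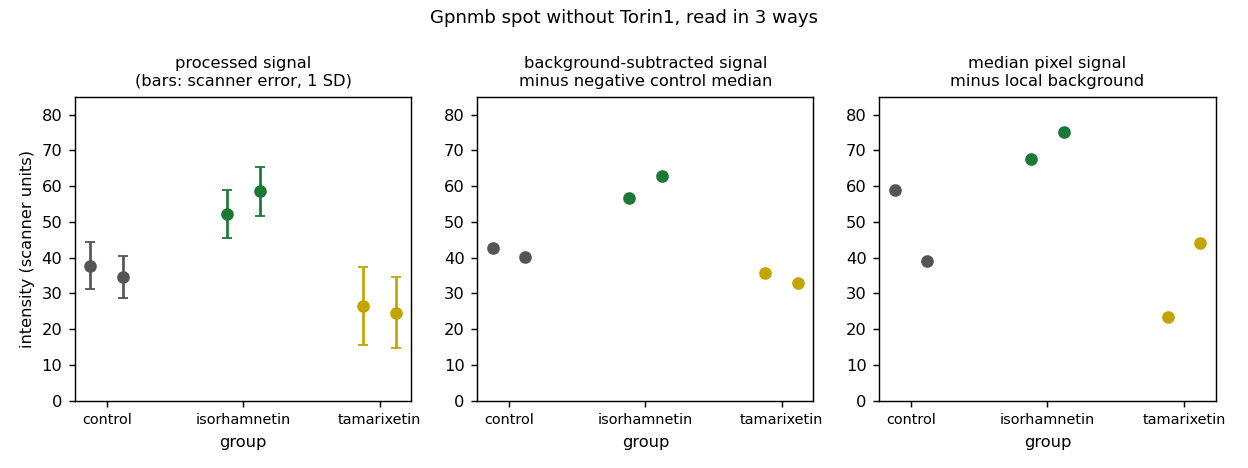
Gpnmb spot intensity in scanner units on the 6 arrays without Torin1, in 3 panels for 3 ways of reading it, with each point an array. Isorhamnetin is highest in each panel, and control and tamarixetin overlap where the median pixel minus the local background is used (39 to 59 and 23.5 to 44).

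The 2 arrays of a group lay close together, with a pooled SD of 0.06 on the log2 scale. Probes printed 10 times on each array gave a wider measure at this brightness. At signals from 20 to 70, the median SD between spots of a probe was from 0.19 to 0.40 over the arrays, on 5 or 6 probes each. At signals from 1000 to 4000 it was from 0.07 to 0.10. The spread of a dim spot within an array was therefore larger than the spread between the replicate Gpnmb values, and the SE of the small differences does not hold it.

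All 8 arrays were on 1 slide and read in 1 scan. Control and isorhamnetin filled its first row and tamarixetin and Torin1 the second, so row and group cannot be told apart when tamarixetin or Torin1 is set against control, or isorhamnetin against tamarixetin. Within a row, Gpnmb differed by 0.53 on the log2 scale between isorhamnetin and control, and by at least 50.7-fold between Torin1 and tamarixetin. The 75th percentile of signal ran from 318 to 403, and from 41.5% to 52.3% of probes were well above background, least on the tamarixetin arrays. Replicates correlated at 0.992 to 0.997 over the genes tested. Of 10 macrophage markers 9 were well above background on all 8 arrays and Mertk on none, with a summed level, relative to the 75th percentile, of 720 to 733 in control, 649 to 713 with isorhamnetin, 676 to 683 with tamarixetin then 738 to 749 after Torin1. The sum hides single markers that moved in opposite directions. Fcgr1 was at 2.39 and 2.22 in control and -0.07 and 0.21 after Torin1. Adgre1 was at 1.27 and 1.54 in control and 2.92 and 2.74 after Torin1. The T cell genes Cd3e, Cd247 and Cd4 were also above background throughout, with Cd3g and Cd8a on no array, and their list summed to 9.66 to 10.8 in control, 7.27 to 8.50 with isorhamnetin, 6.82 to 8.22 after tamarixetin and 6.18 to 6.50 with Torin1. The neutrophil genes S100a8 and Elane were above background throughout and Mpo on no array, with a sum of 2.90 to 3.10 in control, 1.88 to 2.62 with isorhamnetin, 1.70 to 2.01 with tamarixetin and 1.94 to 2.00 with Torin1. Of the pigment cell markers Dct was above background throughout and Mlana on no array, and their sum was 3.40 to 3.83 in control, 1.51 to 3.54 with isorhamnetin, 1.09 to 3.26 with tamarixetin and 1.31 to 2.32 with Torin1. Their part in the Gpnmb values was not tested. In these bulk samples, more transcript per cell and more cells with the transcript cannot be told apart.

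The genes around Gpnmb in the pathway were compared with limma, with Benjamini-Hochberg adjustment over all 21528 genes, and a gene counted as changed at an adjusted p under 0.05. Over all genes, 49.4% were called between Torin1 and control, 19.3% higher and 30.1% lower, with a median difference of -0.10. Isorhamnetin and control differed in 0.543% of genes, 0.418% higher and 0.125% lower, with a median of -0.00. Those 117 genes became 5 to 75 when any 1 array was left out and 4 with the replicate number as a block, and 0 when these groups were fitted alone (3123 at an unadjusted p under 0.05 in limma). For tamarixetin against control it was 0.079%, with 0.0697% higher and 0.00929% lower and a median of -0.05, and the 17 genes became 0 to 146 without 1 array. Between isorhamnetin and tamarixetin 0.827% were called, 0.585% higher and 0.242% lower with isorhamnetin, with a median of 0.05, and the 178 genes became 39 to 272 without 1 array. The comparisons with control share the control arrays. Of the genes called with Torin1, 39.0% were higher, against 22.8% with median scaling and 56.6% with the percentile over probes above background on all arrays. For tamarixetin against control the share of higher calls was 88.2%, against 71.4% with quantile normalization, and for isorhamnetin against tamarixetin 70.8%, against 57.5% with median scaling.

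Among the transcription factors known to activate Gpnmb, Mitf rose and Tfeb fell with Torin1, each by less than several of their regulators. The Mitf levels were 4.46 and 4.45 in control, 4.74 and 4.76 with isorhamnetin, 4.49 and 4.31 after tamarixetin, then 5.02 and 4.98 after Torin1. Mitf rose by 0.54 with Torin1 (adjusted p = 0.00234), a call lost with median scaling (adjusted p = 0.053, the highest of 20 alternatives, with a lowest of 8.12e-05). Isorhamnetin lay between control and Torin1 for Mitf, 0.29 above control, a difference that did not pass (adjusted p = 0.162). Tfeb fell by 0.40 with Torin1 (adjusted p = 0.0391), a call lost in 8 of 20 alternative settings, where adjusted p ran from 0.00634 to 0.169. Tfe3 differed by -0.18 (adjusted p = 0.0771) and was not called in 16 of 20 alternatives. It was called lower with median scaling, at -0.35 (adjusted p = 0.0499), and with trend and robust eBayes in limma (adjusted p = 0.0299). Tfec differed by -0.07 (adjusted p = 0.905).

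Fnip2 and Fnip1, partners of folliculin in the complex that lets mTOR act on TFEB and TFE3, rose with Torin1 by 2.43 and 1.23. Fnip2 stood at 2.29 and 2.34 in control, 2.23 and 2.22 with isorhamnetin, 2.21 and 2.22 after tamarixetin, then 4.72 and 4.77 after Torin1. Only the Torin1 arrays of Fnip2 were apart from the rest. Flcn, folliculin itself, rose by 0.84 and Rragc, a lysosomal GTPase that binds mTOR's complex, by 0.70 (adjusted p = 0.000597 and 0.00102). Of 15 measured factors and regulators 5 were higher and 3 lower with Torin1 (median 0.05), beside 49.4% called over all genes. The lower ones besides Tfeb were Rraga, at -0.26, and Lamtor5, at -0.24, and each lost the call in 7 of 20 alternatives, with adjusted p up to 0.129 and 0.548. Against control 0 of the 15 passed with either flavonol, beside 0.543% (isorhamnetin) and 0.079% (tamarixetin) of all genes. Rragd, the sixteenth gene listed, was not read well above background on both arrays of any group.

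Lysosomal genes known as targets of these factors rose with Torin1 in 25 of 36 cases and fell in 0, with a median of 0.41. Over all genes 19.3% were higher and 30.1% lower. The number of these lysosomal genes called was 20 with median scaling and 29 with the percentile taken over probes above background on all arrays. Ctsb and Ctsd, lysosomal proteases, rose by 1.44 and 1.32 (adjusted p = 0.00017 and 0.000123). Clcn7, the lysosomal chloride transporter, rose by 1.37 and Naglu, which degrades heparan sulfate, by 1.36 (adjusted p = 6.95e-05 and 7.1e-05). Smaller rises were those of Psap at 0.94, Npc1 at 0.93 and Lamp1 at 0.50. Every one of these was far under the 5.84 of Gpnmb. Grn, progranulin, was not called on the probe used, at -0.32 (adjusted p = 0.102), but its other probes gave 1.40 and 1.63, and the mean of its probes gave 0.90.

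Lipa, the lysosomal acid lipase, was the 1 gene called with isorhamnetin against control among the 36 listed lysosomal genes, beside 0.543% of all genes. Its levels were 4.08 and 4.11 in control, 4.97 and 4.87 with isorhamnetin, 4.0 and 3.98 after tamarixetin, then 4.85 and 4.85 after Torin1. The isorhamnetin and Torin1 arrays were alike in height and stood above the other 4. Lipa rose by 0.83 ± 0.06 with isorhamnetin (adjusted p = 0.015) and by 0.76 with Torin1 (adjusted p = 0.000372), and it was 0.93 higher with isorhamnetin than with tamarixetin (adjusted p = 0.00658). The isorhamnetin call against control was lost in 10 of 20 alternatives, with adjusted p from 0.000164 to 0.125, and the call against tamarixetin in 1 of 20. With tamarixetin Lipa differed from control by -0.10 (adjusted p = 0.448), and 0 of the 36 lysosomal genes passed, beside 0.079% of all genes.

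Osteoclast genes, a cell type in which GPNMB is abundant, held the listed genes nearest to Gpnmb in size. Atp6v0d2, a subunit of the proton pump of lysosomes and osteoclasts, was at -3.04 and -3.20 in control, -2.33 and -2.29 with isorhamnetin, -3.69 and -3.30 after tamarixetin, then 1.81 and 1.88 after Torin1. Ctsk, cathepsin K, was at -1.50 and -1.42 in control, -0.93 and -0.99 with isorhamnetin, -1.46 and -1.47 after tamarixetin, then 2.99 and 2.98 after Torin1. Both were highest with Torin1 and next highest with isorhamnetin, the order seen for Gpnmb. Atp6v0d2 rose with Torin1 by 4.96 and Ctsk by 4.44 (adjusted p = 3.22e-05 and 5.51e-06).

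Between the isomers, Ctsk was 0.50 higher with isorhamnetin (95% interval 0.36 to 0.63, adjusted p = 0.0324). Atp6v0d2 was at least 1.69-fold higher, a bound, since it was not well above background with tamarixetin. Its adjusted p of 0.0355 belongs to the nominal log2 difference of 1.18 and does not test the bound. The mean of the Atp6v0d2 probes gave 0.35 (adjusted p = 0.523). Those calls were lost in 12 of 20 and 10 of 19 alternatives, with adjusted p from 0.00478 to 0.298 for Ctsk and from 0.00453 to 0.523 for Atp6v0d2. Ctsk was also called against control, 0.50 ± 0.06 higher with isorhamnetin (adjusted p = 0.0372), in a call lost in 13 of 20 alternatives, where adjusted p ran from 0.0136 to 0.224. Leaving out any single array ended that call, and also ended the Ctsk call against tamarixetin. Atp6v0d2 was 0.81 ± 0.14 above control (adjusted p = 0.0827). Mitf was 0.35 higher with isorhamnetin than with tamarixetin (95% interval 0.17 to 0.53, adjusted p = 0.14), which did not pass. Fnip2 differed by 0.01 (95% interval -0.11 to 0.14, adjusted p = 0.96).

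Of 12 measured osteoclast genes 7 rose with Torin1 and 2 fell (median 0.28), beside 19.3% higher and 30.1% lower over all genes. Acp5, the tartrate-resistant phosphatase, rose by 1.79 and Tcirg1, another proton pump subunit, by 1.28. Tnfrsf11a, the receptor RANK, fell by 1.09 and Ocstamp, a membrane protein needed for osteoclast fusion, fell by 0.94 (adjusted p = 0.00034 and 0.00124). Nfatc1, the leading transcription factor of osteoclasts, rose by 0.38 (adjusted p = 0.00292), a call lost in 2 of 20 alternatives, with adjusted p up to 0.675. Its other probe gave -0.30 (adjusted p = 0.091), and the mean of both probes 0.04. The called genes of the list went in both directions, and Mmp9 and Itgb3 did not pass the filter on dim probes. With tamarixetin 0 of the 12 passed against control, beside 0.079% of all genes.

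Genes of lipid-laden macrophages, a state in which Gpnmb is a usual marker, were higher with Torin1 in 7 of 14 cases and lower in 2, with a median of 0.30. The shares over all genes were 19.3% higher and 30.1% lower. Abcg1 and Abca1, which export cholesterol, rose by 1.48 and 1.04, and Plin2, which coats lipid droplets, by 1.29. Trem2, a lipid-sensing receptor, rose by 0.53 (adjusted p = 0.0012). Lpl, which frees fatty acids from lipoproteins, fell by 1.13 and Apoe, a carrier of lipids, fell by 0.56 (adjusted p = 0.000138 and 0.00849). With isorhamnetin and with tamarixetin 0 of the 14 passed against control, with medians of -0.08 and -0.09. The shares called over all genes were 0.543% and 0.079%.

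Of 9 genes listed for the homologue of GPNMB and for proteins that cut or bind it, 7 were measured, and 3 transcripts were higher and 2 lower with Torin1, beside 49.4% called over all genes. With median scaling 3 were called, and none of the higher ones was among them. Adam10, a sheddase of GPNMB, fell by 0.30 (adjusted p = 0.011, lost in 4 of 20 alternatives) and Adam17, a related sheddase, rose by 0.35 (adjusted p = 0.00573). Sdc4, syndecan 4, a heparan sulfate proteoglycan that binds GPNMB, fell by 0.66 (adjusted p = 0.000738). Cd44, a hyaluronan receptor that also binds it, rose by 0.49 (adjusted p = 0.00199). The rises of Cd44 and Adam17 were lost with median scaling (adjusted p = 0.0577 and 0.164), and over all 20 alternatives their highest adjusted p were those same values. Itgb1 and Itga5, integrin subunits, differed by -0.18 and 0.11 and were not called. Itgb1 was not called in 16 of 20 alternatives. It was called lower in the rest, among them median scaling, at -0.35 (adjusted p = 0.0309 in limma). Pmel, the closest relative of Gpnmb and a structural protein of melanosomes, was above background on 0 arrays, and Egfr did not pass the filter. With either flavonol 0 of the 7 measured passed, beside 0.543% (isorhamnetin) and 0.079% (tamarixetin) of all genes.

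Among pigment cell genes 6 of 12 passed the filter. Slc24a5, an ion exchanger of melanosomes and related organelles, was the 1 called with Torin1, at 0.63 (adjusted p = 0.00119), and the median of the 6 was -0.29. Over all genes 49.4% were called in that comparison. In the plot of the gene lists the lysosomal genes lie mainly to the right of 0 in the Torin1 panel alone, with Atp6v0d2 and Ctsk far beyond the other osteoclast genes.

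**Figure D4:**
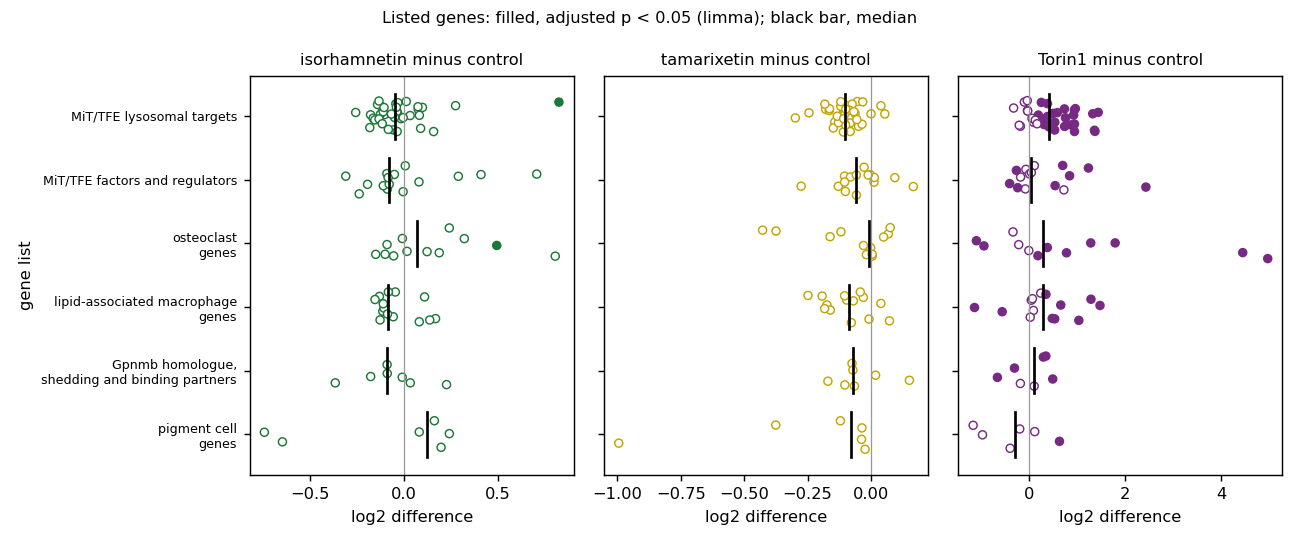
Log2 difference from control of each measured listed gene, by list, in 1 panel per compound whose horizontal axes have different ranges; filled points passed an adjusted p of 0.05 in limma and black bars are list medians. In the Torin1 panel 25 of 36 lysosomal genes are filled and to the right of 0, and in the tamarixetin panel 0 points are filled.

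The named genes whose pattern was closest to that of Gpnmb were sought among 12938 others, by the root mean square distance over the 8 arrays after each gene's own mean was removed. The closest was Il7r, the interleukin 7 receptor, at a distance of 0.19 on the log2 scale. Its levels were -4.25 and -4.41 in control, -3.40 and -3.35 with isorhamnetin, -4.68 and -4.76 after tamarixetin, then 1.60 and 1.54 after Torin1. Like Gpnmb, Il7r was highest with Torin1. With isorhamnetin it was at least 1.47-fold above control. Il7r was not well above background in control or tamarixetin, whose order is therefore not set. Its isorhamnetin mean of -3.37 was also under the lowest signal called well above background on the tamarixetin arrays, -3.08 and -3.06. The order of isorhamnetin and tamarixetin is therefore not set for Il7r either. The Il7r level with Torin1 was at least 45.1-fold that of control.

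Atp6v0d2 followed at 0.49, Fam20c, a kinase of the secretory pathway, at 0.52, and the chemokine genes Ccl7 and Ccl2 at 0.73 and 0.74. The next were Ctsk at 0.75, Hyal1, a lysosomal hyaluronidase, at 0.88, and Cd83, Atf3 and Ccrl2 at 0.89, 0.89 and 0.92. Of these 10 genes 3 were not above background on either control array and 6 on neither tamarixetin array. Ccl2 and Cd83 had Torin1 minus control differences of 4.31 and 4.05 but isorhamnetin minus control differences of -0.06 and -0.27, and Atf3 had 4.03 and 0.59. The closest genes thus differed among themselves in the isorhamnetin groups, as the plot of the 10 genes shows.

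**Figure D5:**
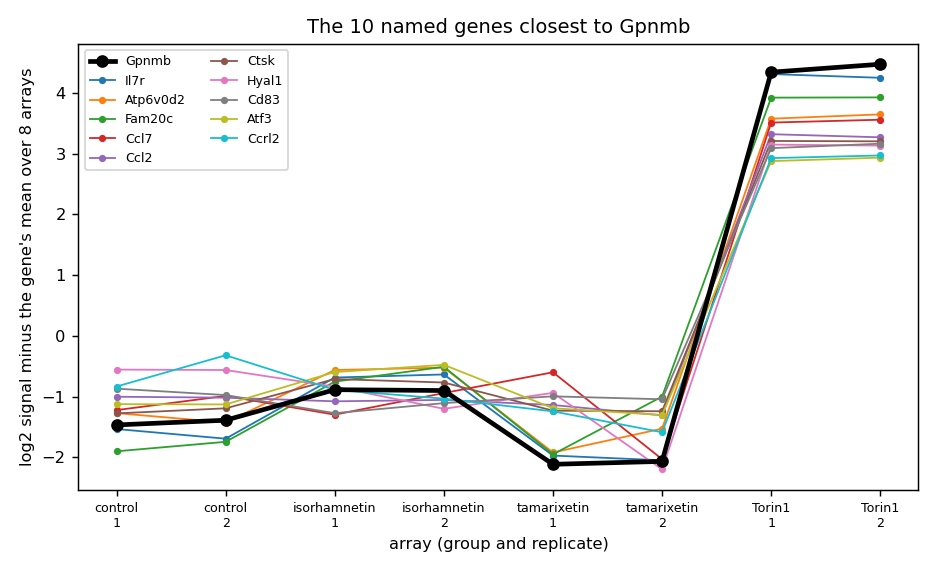
Log2 signal of Gpnmb (black) and of the 10 named genes closest to it by distance, on each of the 8 arrays, after subtraction of each gene's mean over the arrays. All 11 lines rise on the Torin1 arrays, and Il7r, at a distance of 0.19, runs nearest to Gpnmb on the other arrays.

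By Pearson correlation over the 8 arrays, the 10 closest genes were Irf2bpl, C3ar1, Hcar2, Rapgef2, Clcn7, Il1rn, Plekho2, Klf6, Dhrs3 and Naglu. Clcn7 and Naglu, whose start regions are printed above, had r of 0.998. None of these 10 was among the 10 closest by distance, since correlation ignores the size of a change. A correlation of at least 0.99 was reached by 163 genes and one of at least 0.95 by 942, over 8 points in which the Torin1 pair stands apart for Gpnmb and the arrays share a slide. The listing therefore ranks likeness mainly in the contrast of Torin1 with the rest. Only 1 of the 10 was also among the 10 closest by Spearman correlation.

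Malsu1 and Tra2a, both on the same side of Gpnmb on chromosome 6, were its only measured neighbours. Neither was called in any comparison, beside 49.4% of all genes called between Torin1 and control. Malsu1, the nearest gene with a probe on 1 side, differed between Torin1 and control by 0.08 (adjusted p = 0.384), and by 0.11 and 0.05 with isorhamnetin and tamarixetin (adjusted p = 0.493 and 0.784). Tra2a, further on, differed by -0.14 with Torin1 (adjusted p = 0.207). Igf2bp3, Svs1, Doxl1 and Doxl2, the others of the 3 nearest named genes on each side, did not pass the filter. Svs1, Doxl1 and Doxl2 were the genes of the other side, so that side was not measured.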

How the data were processed

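RNA of 8 cultures was hybridised in 1 colour (Cy3). Per the file headers, the authors' Agilent Feature Extraction 10.7.1.1 software gave each spot's intensity, a background-subtracted and processed signal, its error and background flags. The authors' deposited log2 values was matched, within 0.01 for 99.97% of values, by log2 processed signal minus the array's 75th percentile minus the probe's median over the 8 arrays. Levels here are the log2 processed signal minus that percentile over all 56605 probes, spots of a probe averaged. Probes marked as outliers (323) were left out, and the 27562 that passed the scanner's background flag on each array of any 1 group were kept. Symbols came from RefSeq (GRCm38.p6) by transcript accession for 32994 probes. The header names build mm9, from which no coordinate was used. The brightest probe stood for a gene, giving 21528 genes, of which 12939 had a symbol. limma 3.58.1 in R 4.3.3, with the data.table package (version 1.17.8), was fitted over all 8 arrays with a mean per group and 4 residual degrees of freedom, and was tested on simulated data. An exact two-sided permutation test of 2 arrays against 2 cannot go below p = 0.333. The number of arrays limits the precision. Gpnmb, the lists and the motifs were chosen with earlier results of these data known. Named genes are up to 6 called members of a list in each direction by size, members whose role is told, and the 10 closest genes; the values of some listed genes are not reported here. TGANTCA, zeroing on negative controls and leaving out the first 48 spot rows were added after the data were seen.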

Additional observations from a re-analysis of the deposited data

Results flagged for a closer look

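Both isorhamnetin arrays and both Torin1 arrays lay above both control arrays, with differences of 0.535 and 5.84 on the log2 scale, and the processed signals of both tamarixetin arrays lay below both, with a nominal difference of -0.663, which drew attention to the gene. The side of control on which tamarixetin lies is not set: its spots were not well above background, and by median pixel minus local background its arrays (23.5 and 44) overlapped control (59 and 39). The difference between the compounds' effects was not tested.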

How the results depend on the processing

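Every Gpnmb difference kept its sign in all alternatives run. In the order isorhamnetin, tamarixetin and Torin1 against control, then isorhamnetin and Torin1 against tamarixetin, normexp with an offset of 50 gave 0.18, -0.33, 4.09, 0.51 and 4.42, and zeroing on negative controls (added after the data were seen) gave 0.45, -0.44, 5.64, 0.89 and 6.08. Quantile normalization gave -0.74 (tamarixetin) and 6.56 (Torin1 against tamarixetin), median scaling 5.66 and 6.38 (Torin1 against control and tamarixetin), the percentile over probes above background on all arrays 5.97 and 6.60, and centring on the spots around Gpnmb -0.56, 5.99 and 1.07 (tamarixetin and Torin1 against control, isorhamnetin against tamarixetin). Without 1 array, the 5 ranges were 0.50 to 0.57, -0.70 to -0.62, 5.77 to 5.90, 1.17 to 1.22 and 6.43 to 6.56. The cause of these shifts was not tested.

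Counts of called genes in the flavonol comparisons depended on the setting. Isorhamnetin against control gave 13 with median scaling, 6 with no filter, 376 above background on all arrays, 0 with only the groups compared (3123 at an unadjusted p under 0.05 in limma), and 436 with trend and robust eBayes. Tamarixetin against control gave 9 with normexp, 12523 with no filter, 0 above background on all arrays (2635 unadjusted), 88 with trend, and 0 without the first 48 spot rows (2742 unadjusted, added later). Isorhamnetin against tamarixetin gave 95 with normexp, 113 with median scaling, 14017 with no filter, 1 with only these groups, 270 with trend and 111 without those rows, and Torin1 against tamarixetin 5586 with no filter. Without 1 array, the counts were 5 to 75, 0 to 146, 7479 to 10876, 39 to 272 and 6585 to 8736 in the order above; tamarixetin had 0 without either control array (2508 and 1811 unadjusted) and 146 and 142 without its first or second array. For Torin1 against control, the ranges over lists were 21 to 25 (lysosomal), 5 to 9 (factors), 8 to 9 (osteoclast), 9 to 10 (lipid), 4 to 5 (partners) and 1 to 2 (pigment). Median scaling left 3 partners, no filter 3 partners and 5 factors, and only the groups compared 2 pigment genes. Grn reversed with the mean of probes, to 0.90 (Torin1 against control) and 1.11 (against tamarixetin). Scaling moved the median of all genes in Torin1 against control by -0.17 (median) and 0.14 (detected-probe percentile); the higher and lower calls were 2568 and 8688, and 5702 and 4375, against 4155 and 6487. Replicate numbers did not pair the arrays (correlation of deviations -0.13 to 0.08); with the number as a block, calls were 4, 11 and 43 for isorhamnetin and tamarixetin against control and isorhamnetin against tamarixetin. Signal over background limits Gpnmb with tamarixetin to a bound.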

Other observations

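Over the 6 arrays without Torin1, the 10 named genes closest to Gpnmb by distance were Clec2e, Ssh1, Cldn11, Cspg4, Msmb, Htra4, Foxc1, Bfsp2, 4930448F12Rik and Clec4b1. Of these, 7 were not well above background on either control array and 8 on neither tamarixetin array. The distances of Clec2e and Clec4b1 were 0.12 and 0.16 on the log2 scale. None of the 10 was among the 10 closest over all 8 arrays.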
